A study of Mus musculus with 4 samples.

Results

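Chemokine ligand genes were described by RNA-seq in 4 lines of mouse mammary tumor cells, each with 1 library. The genes were chosen by symbol, as rows named Ccl, Cxcl, Cx3cl or Xcl followed by a number, and 38 of the 21090 genes in the table met this rule. All 4 lines go back to a primary mammary tumor of a C57BL/6 mouse with lung metastasis that carried an activating Pik3ca and a dominant-negative Trp53 mutation, both switched on by MMTV-Cre, a Cre recombinase driven in mammary epithelium by a viral promoter. Controls were the unedited parental line and the vector control (n = 2), and knockouts were lines in which Cas9 and a guide RNA cut S100a4 in exon 3 or in exon 2 (n = 2, called the exon 3 line and the exon 2 line). The edited lines were selected on puromycin after infection with lentivirus, and no infection is described for the parental line. No source states that single clones were picked. The exon 2 line is titled 308 where the other 3 titles read 307. S100a4 encodes a small calcium-binding protein. Its RPKM was 3576 in parental cells, 4741 in the vector control, 1136 in the exon 3 line and 1105 in the exon 2 line. The transcript was thus lower but present in the knockouts. For these lines the study reports protein-truncating mutations in most S100a4 transcripts and loss of the protein by Western blot.

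Values are RPKM, the reads of a gene scaled to its length and to the reads of the library. The reads behind an RPKM were recovered from the table, and the library totals behind the values were between 22472024 and 31235456. Because each line has 1 library, the SD of a group measures the spread between lines of that group. Differences were measured as log2(RPKM + 1), which understates the change of genes at low RPKM.

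Chemokines are small secreted proteins that direct the movement of leukocytes through receptors coupled to G proteins, and they are sorted into C, CC, CXC and CX3C families by the spacing of cysteines near the start of the protein. Inflammatory chemokines such as Ccl2 and Cxcl10 are induced by NF-kB and interferon signalling. Homeostatic members such as Cxcl12 are made steadily by stromal cells. Tumor cells and fibroblasts of mammary tumors are known to make several of them, and chemokines in tumors bring in monocytes, neutrophils or T cells according to the ligand.

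Of the 38 genes, 26 had reads in at least 1 library, 14 had reads in all 4, and 12 were listed at 0 throughout. The genes at 0 were Ccl1, Ccl19, Ccl21a, Ccl21b, Ccl22, Ccl24, Ccl26, Ccl27b, Cxcl13, Cxcl15, Cxcl17 and Xcl1. Many of these serve lymphoid tissue, mucosa or leukocytes: Ccl19, Ccl21a and Cxcl13 place cells in lymph nodes, and Xcl1 is made by T and NK cells. RefSeq names of the same form that have no row of their own were Ccl21c and Ccl21d, which share older names with Ccl21b. Pf4 and Ppbp, the platelet CXC chemokines, do not carry a Cxcl symbol and were not counted as members. Their RPKM was 0 in all libraries for Pf4 and at most 0.345, in the vector control, for Ppbp. Near-identical copies exist in the Ccl21 and Ccl27 groups, so reads of Ccl27a could have been split or lost in counting.

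The chemokine output of the lines rested on few genes. Mean RPKM was at least 1 for 12 members, the lowest of them Cxcl2 at 1.41, and the nearest member under that limit was Cxcl14 at 0.931. The summed RPKM of all members was 626 in parental cells, 1855 in the vector control, 900.5 in the exon 3 line and 595 in the exon 2 line. This was between 0.110% and 0.346% of the RPKM total of a library. Ccl5 and Cxcl10 made up 49.0% of the sum in the parental line and between 74.2% and 82.6% in the other lines. The vector control held the highest value of 8 of the 12 genes, where it held the highest value of 36.6% of all tested genes. Of these 8, Cxcl2 passed the limit on mean RPKM largely through the vector control itself. The parental line was highest for 3 (Cxcl12, Cx3cl1 and Cxcl16), the exon 3 line for 1 (Ccl9) and the exon 2 line for 0.

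**Figure D1:**
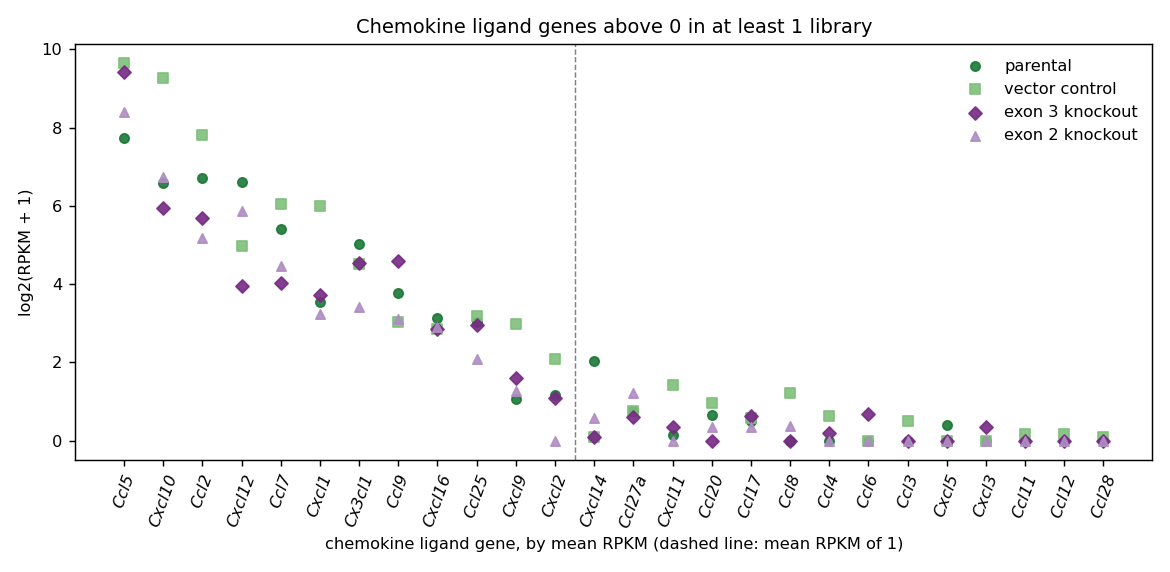
Level of each chemokine ligand gene with reads in at least 1 library, as log2(RPKM + 1) on the vertical axis, with 1 point per library and genes ordered by mean RPKM. The 12 genes left of the dashed line had mean RPKM of at least 1, and the vector control (light green squares) was highest in 8 of them.

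The labelled cell type was checked against markers. Of 8 epithelial markers, Krt8 and Krt18 passed a mean RPKM of 1, while Epcam, Cdh1, Krt5, Krt14, Cldn3 and Cldn4 were at most 0.657 in any library. Of 8 mesenchymal markers, 7 had mean RPKM of at least 1, with Vim, a filament protein of mesenchymal cells, at 2418, 2060, 1362 and 1721 in the parental line, vector control, exon 3 and exon 2 lines. The summed RPKM of 12 leukocyte markers was between 14.9 and 39.2. Cd14 (9.42, 34.5, 8.74 and 7.15 in the order just given) and Cd68 (4.92, 3.36, 11.5 and 13.2) made up most of that sum, so Cd14 moved with the chemokines of the vector control and Cd68 was higher in the knockouts. Their part in the chemokine values was not tested. Ptprc, which marks all leukocytes, Cd3e and Itgam had an RPKM of 0 to 0.0123. The summed RPKM of 5 endothelial markers was at most 0.443.

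The comparison of knockout with control lines asked which chemokine transcripts differ when S100a4 is edited. In limma, fitted on the 10871 genes that reached a mean RPKM of 1, 0 of the 12 members had an adjusted p under 0.05, against 0.0184% of all tested genes (2 genes, neither a chemokine). An unadjusted p under 0.05 was reached by 4 members (Ccl2, Ccl7, Cxcl10 and Cxcl2) and by 19.1% of all tested genes. On the log2 scale the change was below 0 for 10 members and above 0 for 2, with a median of -0.85, while 55.0% of all tested genes were below 0 and their median was -0.078. Both knockouts lay below both controls for 4 members (Ccl2, Ccl7, Ccl25 and Cxcl2), where 31.2% of all tested genes did so, and above both controls for 0 members, against 21.9%. The share of members below is thus close to the background. Cxcl2, counted here and among the 4 of unadjusted p under 0.05, passed the filter on mean RPKM largely through the vector control. With 2 lines against 2, the smallest two-sided p that an exact permutation test of a single gene can give is 0.333.

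Ccl2 and Ccl7, CC chemokines that bring monocytes out of the bone marrow and into tissue through the receptor Ccr2, were the members most clearly apart. Ccl2 (chromosome 11 from 82035571 to 82037453, plus strand, GRCm38) had an RPKM of 104 in parental cells, 225 in the vector control, 50.8 in the exon 3 line and 35.2 in the exon 2 line. Both knockouts were below both controls, and the vector control was 2.17 times the parental line. The control mean was 164 ± 85.8 (SD, n = 2) and the knockout mean 43.0 ± 11.0 (SD, n = 2), or 26.2% of the control mean. The log2 change was -1.83 (SE 0.386, limma adjusted p 0.0979). It ranked 61 of 10871 genes by unadjusted p. These values rest on 354 to 2554 reads per library, so counting error is small beside the spread between lines. In bulk cultures such as these, fewer expressing cells and less RNA per cell cannot be told apart.

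Ccl2 was the only member at least 2-fold lower in each of the 4 pairs of a knockout with a control, where 1.73% of all tested genes were. For at least 2-fold higher in each pair the members counted 0, against 0.267%. The smallest of the 4 differences of Ccl2 was -1.01, between exon 3 and parental lines, and median ratio scaling, which moved the median of all genes to 0.01, took Ccl2 out of that count. Without the parental line the log2 change was -2.38 (adjusted p 8.48e-09 in limma), and without the vector control it was -1.27 (adjusted p 0.0177), in each case with the lone control assumed to vary like the knockouts. With either knockout left out, the adjusted p was 0.221 or 0.338.

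Ccl7 lies beside Ccl2 (chromosome 11 from 82045712 to 82047525) and showed the same order of groups. Its RPKM was 41.2 in parental cells, 65.4 in the vector control, 15.4 in the exon 3 line and 21.2 in the exon 2 line. The groups did not overlap, with means of 53.3 ± 17.1 in the controls and 18.3 ± 4.12 in the knockouts (SD, n = 2 each). On the log2 scale the change was -1.47 (SE 0.339, limma adjusted p 0.105). A robust prior in limma, under which 285 genes were called in all, gave adjusted p of 0.0143 for Ccl2 and 0.0194 for Ccl7. After correction for GC content and length, Ccl7 also was at least 2-fold lower in every pair. The study names Ccl2 and Ccl7 among the genes it found lower in these same libraries, so their direction here is not independent evidence.

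The rest of that cluster was nearly silent. Ccl11 and Ccl12 had 1 read each, both in the vector control, and Ccl1 had 0. Ccl8, a monocyte chemokine, had 10 reads in the vector control (RPKM 1.34, 95% Wilson interval 0.728 to 2.47), 2 in the exon 2 line and 0 in the parental line and exon 3 line, where a count of 0 allows an RPKM of up to 0.327 and 0.435. Intervals and limits of this kind cover counting error only. The cluster spans 270 kb, and its reads came almost wholly from the 2 genes at its start.

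**Figure D2:**
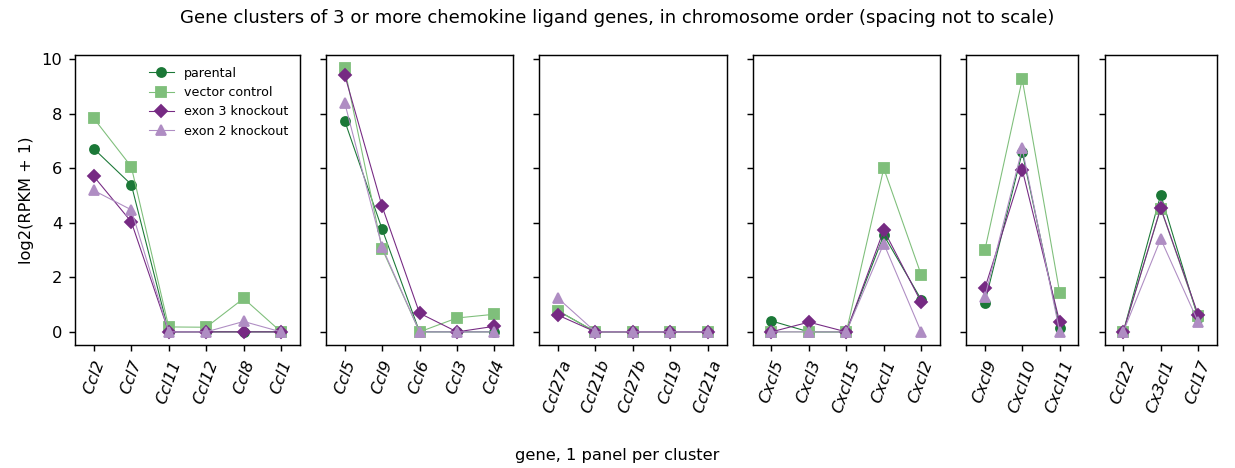
Levels as log2(RPKM + 1) of the members in 6 gene clusters of at least 3 chemokine genes under 500 kb apart, in chromosome order, with 1 line per library. At most 2 genes of a cluster reached a mean RPKM of 1, and Cxcl10, Cxcl9 and Cxcl11 were highest in the vector control.

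Interferon-induced CXC chemokines gave the widest ratios between the controls among the 12 genes. Cxcl9, Cxcl10 and Cxcl11 share the receptor Cxcr3 and draw activated T cells. Cxcl10 (chromosome 5 from 92346638 to 92348889, minus strand) had an RPKM of 94.6 in parental cells, 609 in the vector control, 60.5 in the exon 3 line and 105 in the exon 2 line. The vector control stood alone, 6.43 times the parental line, and the parental value lay between the knockouts, so the groups overlapped. The mean was 352 ± 364 in the controls and 82.6 ± 31.3 in the knockouts (SD, n = 2 each), with a log2 change of -1.58 (SE 0.651, limma adjusted p 0.226). Without the vector control the log2 change was -0.25, and without the parental line it was -2.92.

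Cxcl9, next to Cxcl10, had an RPKM of 1.09, 6.92, 2.01 and 1.40 in the parental line, vector control, exon 3 and exon 2 lines, from 13, 67, 18 and 12 reads. The vector control was again the highest, and the other 3 values had overlapping 95% Wilson intervals. The log2 change of -0.60 (SE 0.545, limma adjusted p 0.563) became 0.36 without the vector control. Cxcl11 had 13 reads in the vector control, 1 in the parental line, 2 in the exon 3 line and 0 in the exon 2 line. Its RPKM of 1.69 in the vector control (0.991 to 2.90) compares with at most 0.282 elsewhere.

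The sequence before the start of Cxcl10 is shown because it held all 3 motifs searched, and that of Cxcl9 because this neighbour, also highest in the vector control, held none of them. The motifs were the kB consensus bound by NF-kB, AANNGAAA, read by interferon regulatory factors, and TGANTCA, read by AP-1, each on either strand and with overlaps allowed. The 250 bases before the start are given 5′ to 3′ on the gene's strand from RefSeq (GRCm38.p6), chr5:92348890-92349139 for Cxcl10 and chr5:92328080-92328329 for Cxcl9, with matches in capitals.
Cxcl10: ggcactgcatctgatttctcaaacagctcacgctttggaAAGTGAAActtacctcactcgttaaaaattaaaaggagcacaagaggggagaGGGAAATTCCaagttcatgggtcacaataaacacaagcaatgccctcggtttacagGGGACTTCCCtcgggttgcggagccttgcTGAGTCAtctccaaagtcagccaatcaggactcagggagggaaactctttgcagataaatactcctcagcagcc
Cxcl9: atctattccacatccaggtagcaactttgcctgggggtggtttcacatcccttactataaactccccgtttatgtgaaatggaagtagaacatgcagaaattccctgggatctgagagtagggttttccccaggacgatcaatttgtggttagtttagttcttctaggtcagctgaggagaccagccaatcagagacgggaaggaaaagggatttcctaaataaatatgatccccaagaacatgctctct
In Cxcl10, kB matches began 159 and 103 bases before the start, an AANNGAAA match 211 bases before it and a TGANTCA match 74 bases before it. A match is a run of letters and not evidence of binding.

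CXC chemokines that bring in neutrophils through Cxcr2 had 1 abundant member, Cxcl1, and both Cxcl1 and Cxcl2 were highest in the vector control. Cxcl1 (chromosome 5 from 90891241 to 90893115, plus strand) had an RPKM of 10.7 in parental cells, 62.5 in the vector control, 12.3 in the exon 3 line and 8.41 in the exon 2 line. The vector control was 5.86 times the parental line, which fell between the knockouts, so the groups overlapped. The log2 change was -1.28 (SE 0.607, limma adjusted p 0.274) and -0.061 without the vector control (adjusted p 0.960).

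Cxcl2, from the neighbouring gene, had 12 reads in parental cells, 25 in the vector control, 8 in the exon 3 line and 0 in the exon 2 line. Its RPKM was 1.27, 3.25 and 1.12 in the first 3 of these, and the count of 0 allows up to 0.441. The knockouts lay below both controls, but the 95% Wilson interval of the exon 3 line (0.570 to 2.22) held the parental value. On the log2 scale the change was -1.09 (SE 0.484, limma adjusted p 0.25), -2.61 with a pseudocount of 0.1 and -2.78 with voom. With a library left out it ran from -1.63 to -0.55. The gene passed the filter on mean RPKM largely through the vector control. Cxcl3 had 2 reads in all, in the exon 3 line, Cxcl5 had 4, in the parental line, and Cxcl15 had 0.

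The 120 bases before the starts of Cxcl1, Cxcl2 and Cxcl3 are given because the 3 genes carry the same kB run at unlike levels. They lie at chr5:90891125-90891244, chr5:90903779-90903898 and chr5:90785981-90786100 (plus strand, RefSeq GRCm38.p6), with the run in capitals.
Cxcl1: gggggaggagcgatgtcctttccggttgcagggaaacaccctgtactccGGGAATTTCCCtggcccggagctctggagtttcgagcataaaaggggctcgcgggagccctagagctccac
Cxcl2: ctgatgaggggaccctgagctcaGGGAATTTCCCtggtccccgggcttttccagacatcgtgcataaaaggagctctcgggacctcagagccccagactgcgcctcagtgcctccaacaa
Cxcl3: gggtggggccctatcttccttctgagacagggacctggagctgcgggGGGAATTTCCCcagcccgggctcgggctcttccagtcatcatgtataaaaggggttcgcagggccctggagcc
The run reads GGGAATTTCCC in each and holds overlapping kB matches on both strands, the first beginning 71, 97 and 73 bases before the start. The highest RPKM of these genes in any library was 62.5, 3.25 and 0.281. Of the 12 members with mean RPKM of at least 1, 8 were matched to a RefSeq promoter, and Ccl2, Ccl5, Ccl7 and Cxcl16 were not. A kB match stood in 4 of the 8 (Ccl9, Cxcl1, Cxcl2 and Cxcl10) and in 4.46% of 27025 genes with a promoter of this length. TGANTCA stood in 2 of the 8 (Ccl9 and Cxcl10) and in 7.82% of genes, and AANNGAAA in 1 (Cxcl10) and in 23.9%. Of the other members, 19 were matched to a promoter. A kB match stood in 2 of these 19, TGANTCA in 2 and AANNGAAA in 8.

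Ccl5, a CC chemokine that recruits T cells and monocytes, was the most abundant member. Its RPKM (chromosome 11 from 83525778 to 83530518, minus strand) was 212 in parental cells, 803 in the vector control, 683 in the exon 3 line and 337 in the exon 2 line. The parental line was lowest and the vector control highest, so both knockouts lay between the controls. The group means of 508 ± 418 and 510 ± 245 (SD, n = 2 each) differed by less than either SD, with a log2 change of 0.22 (SE 0.539, limma adjusted p 0.851). That sign turned under quantile normalization and under the GC and length correction. The log2 change was 1.17 without the vector control, -0.74 without the parental line and -0.29 without the exon 3 line.

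Ccl9, a CC chemokine of myeloid cells and the gene next to Ccl5 among the members, had its highest RPKM in the exon 3 line at 23.2. It was 12.6 in parental cells, 7.26 in the vector control and 7.60 in the exon 2 line. The exon 3 line thus stood above the other libraries, and the exon 2 line lay between the controls. The log2 change was 0.45 (SE 0.469, limma adjusted p 0.616). The inflammatory genes further along this cluster were close to silent, with Ccl3 at 3 reads in the vector control alone, Ccl4 at 4 there and 1 in the exon 3 line, and Ccl6 at 5 in the exon 3 line alone.

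Cxcl12, the stromal chemokine that signals through Cxcr4 and is scavenged by Ackr3, had an order of its own. Its RPKM (chromosome 6 from 117168535 to 117181367, plus strand) was 97.1 in parental cells, 30.6 in the vector control, 14.3 in the exon 3 line and 57.6 in the exon 2 line. The exon 2 line lay between the controls and the exon 3 line below both, and the exon 3 line was 0.249 times the exon 2 line. On the log2 scale the change was -0.89 (SE 0.608, limma adjusted p 0.434), -0.074 without the parental line and 0.075 without the exon 3 line. Cxcl14, another CXC chemokine made by epithelium and fibroblasts, was likewise highest in the parental line. It had 59 reads there (RPKM 3.08, 95% Wilson interval 2.39 to 3.97), 7 in the exon 2 line and 1 in each of the other libraries.

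Markers of both mesenchymal and epithelial cells differed between the controls. Col1a1 RPKM was 670 in parental cells, 6.93 in the vector control, 54.3 in the exon 3 line and 24.2 in the exon 2 line. Of 7 mesenchymal markers tested, 3 were at least 2-fold lower in the vector control than in the parental line. Of all tested genes, 5.19% were. The summed RPKM over the list of 8 was 4669 in the parental line and 2237 to 2515 elsewhere. Vim, Pdgfrb, Twist1 and Zeb1 were at 0.746 to 1.13 times the parental level in the vector control. The tested epithelial markers were lower there too, Krt18 at 0.101 and Krt8 at 0.398 times the parental line. The part of these markers in the Cxcl12 values was not tested.

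The membrane-bound chemokines Cx3cl1 and Cxcl16, which hold leukocytes at the cell surface and are released by cleavage, gave an uneven pair. Cx3cl1 had an RPKM of 31.7 in parental cells, 21.9 in the vector control, 22.3 in the exon 3 line and 9.59 in the exon 2 line. The exon 3 line lay between the controls and the exon 2 line below them. The log2 change was -0.80 (SE 0.400, limma adjusted p 0.299), -1.37 without the exon 3 line and -0.23 without the exon 2 line. Cxcl16 was between 6.19 and 7.85 in all libraries, with the highest 1.27 times the lowest, the narrowest range of the 12 members.

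Ccl25, the thymus and gut chemokine of Ccr9, had an RPKM of 7.18 in parental cells, 8.04 in the vector control, 6.79 in the exon 3 line and 3.22 in the exon 2 line. The exon 2 line stood low, and the other values lay close together with overlapping 95% Wilson intervals. On the log2 scale the change was -0.58 (SE 0.380, limma adjusted p 0.412), -1.03 without the exon 3 line, -0.14 without the exon 2 line and -0.27 under quantile normalization. Among barrier chemokines under the limit, Ccl27a had 9 to 22 reads, Ccl17 had 2 to 4, Ccl20 had 0 to 8, and Ccl28 had 1 read, in the vector control.

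**Figure D3:**
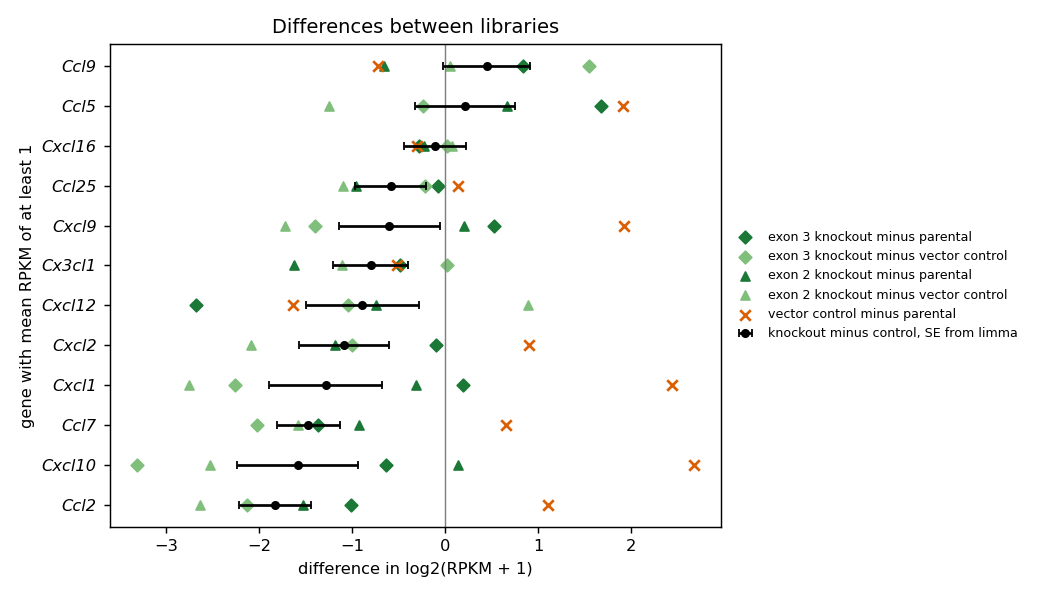
Differences in log2(RPKM + 1) for the 12 members with mean RPKM of at least 1: each knockout minus each control (diamonds and triangles), knockout minus control with its SE from limma (black), and vector control minus parental (orange crosses). All 4 pair points lie below 0 for Ccl2, Ccl7, Ccl25 and Cxcl2. The cross lies further from 0 than the black point for Cxcl10, Cxcl1, Cxcl9, Ccl5, Cxcl12, Ccl9 and Cxcl16.

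To see how far the controls differ by themselves, the vector control was set against the parental line. At least a 2-fold higher value was found in 5 of 12 members (Ccl2, Ccl5, Cxcl1, Cxcl9 and Cxcl10), where 3.34% of all tested genes met this. A value at least 2-fold lower was found in 1 member, Cxcl12, against 5.19%. Between these libraries the median difference of the members was 0.78 and that of all tested genes 0.16. As the controls are single libraries, these differences carry no test. Of the 14 members with reads but mean RPKM below 1, 8 were highest in the vector control. Each of these had at most 13 reads there, and Ccl11, Ccl12 and Ccl28 had 1. No share over other genes of such low level was taken, so this count has no background.

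The knockouts also differed from each other. The exon 3 line was at least 2-fold above the exon 2 line for 4 members (Ccl5, Ccl9, Cx3cl1 and Cxcl2), against 2.43% of all tested genes, and at least 2-fold below it for Cxcl12, against 2.57%. The median difference of members from the parental line was -0.19 for the exon 3 and -0.70 for the exon 2 line, and from the vector control -1.02 and -1.42. All 4 of these comparisons share libraries.

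Interferon response genes were examined because Cxcl9, Cxcl10 and Cxcl11 are induced with them. All 12 genes of the list were highest in the vector control, where 36.6% of all tested genes were. In the vector control 9 were at least 2-fold above the parental line, against 3.34% of all tested genes. The median difference was 1.45, and that of all tested genes 0.16. Isg15, an antiviral ubiquitin-like protein picked after its values were seen, had an RPKM of 446 in parental cells, 1223 in the vector control, 445 in the exon 3 line and 521 in the exon 2 line. For Isg15 the difference between the parental line and the knockouts was small beside the level of the vector control. Over the list, both knockouts lay below both controls for 4 of 12 genes, against 31.2% of all tested genes. They lay above both controls for 0 genes, against 21.9%. In the comparison of knockouts with controls, limma left 0 of 12 with an adjusted p under 0.05. An unadjusted p under 0.05 was reached by 4, against 19.1% of all tested genes. Among these 4 were Gbp3, Ifit1 and Ifit3, with log2 changes of -1.97, -1.57 and -1.12. Without the vector control those changes were -0.98, -0.67 and -0.41 (limma adjusted p 0.136, 0.308 and 0.534), and without the parental line -2.96, -2.47 and -1.82. The part of the interferon response in the chemokine values of the vector control was not tested.

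**Figure D4:**
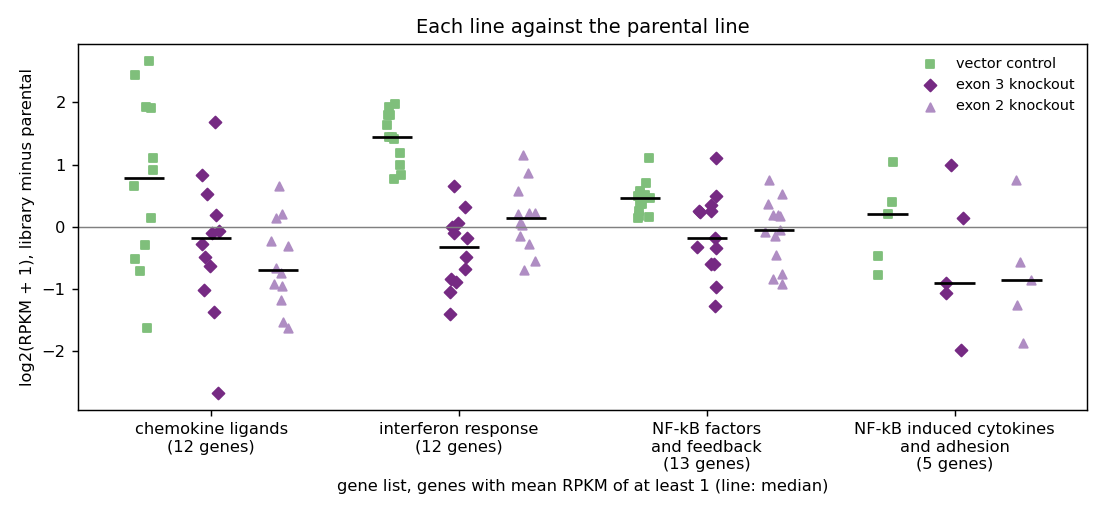
Difference in log2(RPKM + 1) of each other line from the parental line, with 1 point per gene that passed a mean RPKM of 1. The lists are the 12 chemokine ligands, 12 interferon response genes, 13 NF-kB factors and feedback genes and 5 NF-kB induced genes. Black lines are medians. Interferon response genes in the vector control (light green squares) all lie above 0, with a median of 1.45.

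The list of NF-kB factors and feedback held the factors themselves, which drive Ccl2 and Cxcl1, and genes that regulate them, such as the inhibitor Nfkbia. It gave a smaller gap between the controls, with a median difference of 0.47 over 13 genes. The 1 gene at least 2-fold higher in the vector control was Nfkbib, also an inhibitor, where 3.34% of all tested genes were. Of the 13 genes, 11 were highest in the vector control, where 36.6% of all tested genes were. Against the controls, the knockouts had 8 of these genes lower and 5 higher. In limma 3 of the 13 had an unadjusted p under 0.05, against 19.1% of all tested genes, and 0 had an adjusted p under 0.05. The largest log2 changes were -1.24 for Rel, -0.96 for Chuk, -0.89 for Nfkb1 and -0.70 for Nfkbia. After the GC and length correction these values were -0.62, -0.25, -0.67 and -0.94. Of 12 genes for induced cytokines and adhesion molecules, 5 were tested and 0 had an adjusted p under 0.05. Vcam1, an adhesion molecule for leukocytes, had an RPKM of 114, 81.9, 28.0 and 30.6 in the parental line, vector control, exon 3 and exon 2 lines (log2 change -1.69, SE 0.308, limma adjusted p 0.0909). Its groups did not overlap and, unlike Ccl2, its parental value was the highest. Ptgs2, the inducible prostaglandin synthase, had a log2 change of -1.61, Lif, a cytokine of the IL-6 family, -1.16, and Sod2, a mitochondrial dismutase, 0.77. A robust prior in limma, under which 285 genes were called in all, gave adjusted p of 0.00626 for Vcam1 and 0.0194 for Ptgs2. For Lif and Sod2 it gave 0.0576 and 0.162. After the GC and length correction the log2 changes of Vcam1, Ptgs2, Lif and Sod2 were -1.15, -1.19, -1.37 and 0.62. Their limma adjusted p was then 0.244 to 0.351.

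Receptors for these ligands were nearly absent from the cells. Of 18 signalling chemokine receptors, 8 had reads, none had mean RPKM of at least 1, and their summed RPKM was between 0.154 and 1.21. Ccr2, the receptor of Ccl2 and Ccl7, had 14 reads over all libraries, Cxcr3, that of Cxcl10, had 23, and Cxcr4, that of Cxcl12, had 12, all in the parental line. Ackr3, the scavenger of Cxcl12, was measurable, with RPKM of 4.00 in parental cells, 2.46 in the vector control, 1.88 in the exon 3 line and 1.27 in the exon 2 line (log2 change -0.70, adjusted p 0.337 in limma, and -0.38 under quantile normalization). Ccrl2, an atypical receptor induced in inflammation, was 3.75 in the vector control and 0.414 to 1.07 elsewhere. It passed the filter on mean RPKM largely through the vector control itself.

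Adam10 and Adam17, the surface proteases that release Cx3cl1 and Cxcl16, were both lower in each knockout than in each control. So were Mmp9 and Mmp14, the other tested proteases of a list of 8, where 31.2% of all tested genes were. Mmp9 passed the filter on mean RPKM through the controls, with 0.971 in the exon 3 line and 0.122 in the exon 2 line. For Mmp14 the gap was narrow, with an RPKM of 162 in the exon 2 line and 165 in the parental line. Adam17 RPKM was 34.9, 43.0, 13.8 and 16.7 in the parental line, vector control, exon 3 and exon 2 lines, with a log2 change of -1.30 (SE 0.311, limma adjusted p 0.105). Adam10 had a log2 change of -1.18 (adjusted p 0.139 in limma), Mmp9, a gelatinase that can cut chemokines, -1.51 (adjusted p 0.130) and Mmp14 -0.21 (adjusted p 0.706). For Mmp9 the change was -2.77 with a pseudocount of 0.1 and -3.14 with voom. The study also names Mmp9 as lower in these same knockout libraries, so its direction here is not independent evidence. A robust prior in limma gave adjusted p of 0.0279 for Adam17, 0.0546 for Adam10, 0.0465 for Mmp9 and 0.733 for Mmp14. After the GC and length correction the log2 change of Adam17 was -0.73 and that of Adam10 -0.54.

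Base composition and length differ between the members and other genes. Across 10773 genes the log2 change correlated with coding GC content at r 0.458 and with log2 coding length at r -0.282, a description over genes that are no replicates of each other. The 12 members had a median coding length of 364.5 bases and a median GC content of 50.8%, against 1389 bases and 53.0% for all tested genes. With each library corrected for both, the median log2 change of the members was -0.96.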

How the data were processed

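The 4 libraries of total RNA were made with a stranded kit, per the labels (the study names an RNA sample preparation kit without that word). The submitters' processing notes name CASAVA 1.8, GSNAP and GRCm38, and the gene model and counting rule are not given in the sources used here. The authors deposited RPKM values with 1 column per library, without a log scale, and all 4 columns were matched to samples by description (0 left unmatched). Reads were recovered by bringing the values of each gene to whole numbers (tolerance 0.001 reads, 99.75% of genes above 0), with the absolute scale set by coding lengths in GENCODE M21. Python 3.11.15 and limma 3.58.1 (R 4.3.3) were used.

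The test was limma with an intensity trend on log2(RPKM + 1), with no covariates, 2 knockouts against 2 controls, over all genes with mean RPKM of at least 1, with Benjamini-Hochberg adjustment and a threshold of 0.05. The fit was tested on simulated data. Nothing says that lines of a group are independent isolates, so p-values measure only the spread between these libraries. Intervals are 95% Wilson intervals on reads, and a count of 0 allows 3 reads. Members with mean RPKM of at least 1 are given in full, the others by reads. Of the others, the 3 with the highest mean and any above 0.5 RPKM in a library are named, and in each related list the 4 genes with the largest log2 change. A gene that this rule would name is not reported here. Isg15, Col1a1 and some low members were named after their values were seen. The members and lists were chosen with earlier results of these data known. Alternatives were another pseudocount, 2 scalings, other filters, a GC and length correction (splines with 4 degrees of freedom), no trend, a robust prior, voom on recovered reads, 3-fold in place of 2-fold and leaving out each library.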

Additional observations from a re-analysis of the deposited data

How the results depend on the processing

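Among alternatives that kept all 4 libraries, the count of members with an adjusted p under 0.05 in limma was 2 (Ccl2 and Ccl7) with a robust prior and 0 in every other. Leaving out a library gave counts from 0 to 6: 6 without the parental line (Ccl2, Ccl7, Cxcl1, Cxcl2, Cxcl9 and Cxcl10), 3 without the vector control (Ccl2, Ccl5 and Cxcl12) and 0 without either knockout. Such fits rest on a lone library in a group, assumed to vary like the other group. The count of members at least 2-fold lower in all pairs, 1 as reported, was 0 with 3-fold, 0 with median ratio scaling, 2 with the GC and length correction and 1 to 5 with a library left out, 5 without the parental line and 3 without either knockout. The count of members at least 2-fold higher in all pairs was 0 throughout. The median log2 change stayed below 0 in every alternative, between -0.96 and -0.34 with all libraries (lowest with the GC and length correction, nearest 0 with no filter) and between -1.14 and -0.38 with a library left out. The log2 change of Ccl5 was -0.030 under quantile normalization and -0.15 after the GC and length correction, and that of Cxcl16 was 0.20 under quantile normalization. With a library left out, the log2 change ran from -0.74 to 1.17 for Ccl5, -0.30 to 1.19 for Ccl9, -1.86 to 0.075 for Cxcl12, -1.56 to 0.36 for Cxcl9, -0.25 to 0.044 for Cxcl16 and -1.46 to 0.28 for Ccrl2. The cause was not tested. No paired analysis was possible because the replicate numbers follow the order of deposition and pair no lines. Depth limits the 14 members with mean RPKM below 1, which had at most 59 reads in a library.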
